A study of Mus musculus with 4 samples.

Results

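The genes described here are the Th2 cytokine genes Il4, Il13 and Il5, the IL-25 receptor gene Il17rb, the chemokine receptor gene Ccr8 and Maf, which encodes the transcription factor c-Maf. They were taken by name, with earlier results of these data known. They are 6 of the 22180 genes that had a probe set with a single gene symbol. Each gene was read from its probe set of highest mean level. RNA of 4 populations of mouse CD4 T lineage cells had been hybridised to Affymetrix arrays, 1 array per population, all on a C57BL/6 background and from mice 8 weeks old. Natural Th1 cells (nTh1) were thymocytes of CIITAtg mice sorted as CD4+CD62L+CXCR3+. Classic Th1 cells (cTh1) were wild-type splenic CD4+CD62Lhi cells kept for 5 days on CD3 and CD28 beads, with 50 U/ml of IL-2, 2 ng/ml of IL-12 and an antibody against IL-4 that the labels give as 5 mg/ml. TT naive cells were the CD4+CD62L+CXCR3- thymocytes of CIITAtg mice, and naive cells were CD4+CD62Lhi cells from wild-type spleen. CIITAtg names a transgene of the MHC class II regulator CIITA, and the sources used here give neither its promoter nor the number of animals behind an array.

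IL-4, IL-13 and IL-5 are the signature cytokines of T helper 2 cells, and their genes lie close together on mouse chromosome 11. GATA3 is the lineage factor of that programme, and c-Maf is an activator of Il4. IL-17RB pairs with IL-17RA to form the receptor for IL-25, a cytokine that elicits type 2 cytokines, and in the mouse thymus IL-17RB also marks an innate-like subset of NKT cells that makes IL-4 and IL-13. CCR8 is the receptor for CCL1 and CCL8 and is carried by Th2 cells, regulatory T cells and some memory T cells.

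The stretches around the transcription starts of the members are shown to compare them for short motifs of 2 of the factors named here, GATA3 and c-Maf. They come from the RefSeq promoter table of GRCm38.p6, which had an entry for 5 of the 6 members, and run from 250 bases before the start to 50 bases after it, written 5′ to 3′ on the gene's own strand. Capitals mark GATA hexamers (AGATAA or AGATAG, and TGATAA or TGATAG) and the Maf half-site TGCTGA on either strand. Il4 lies on the minus strand and has a pair of starts in the table; the one shown, at the start of the gene entry, is chr11:53618616-53618915. Il13 is also on the minus strand, with chr11:53634653-53634952. Il5 is on the plus strand, with chr11:53720544-53720843. Ccr8 is on the plus strand, with chr9:120091883-120092182, and Il17rb on the minus strand, with chr14:30008847-30009146.
Il4: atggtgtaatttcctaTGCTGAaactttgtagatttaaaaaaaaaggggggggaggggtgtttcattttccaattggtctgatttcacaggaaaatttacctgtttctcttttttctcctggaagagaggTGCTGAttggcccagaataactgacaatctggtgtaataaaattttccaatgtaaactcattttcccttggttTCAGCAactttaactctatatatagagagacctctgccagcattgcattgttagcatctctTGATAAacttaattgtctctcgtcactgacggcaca
Il13: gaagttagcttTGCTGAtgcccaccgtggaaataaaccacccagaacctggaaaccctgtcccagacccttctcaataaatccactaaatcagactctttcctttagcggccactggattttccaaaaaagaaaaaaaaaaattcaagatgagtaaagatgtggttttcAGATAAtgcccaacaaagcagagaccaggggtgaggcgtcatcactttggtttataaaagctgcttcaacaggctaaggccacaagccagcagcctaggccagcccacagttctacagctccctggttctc
Il5: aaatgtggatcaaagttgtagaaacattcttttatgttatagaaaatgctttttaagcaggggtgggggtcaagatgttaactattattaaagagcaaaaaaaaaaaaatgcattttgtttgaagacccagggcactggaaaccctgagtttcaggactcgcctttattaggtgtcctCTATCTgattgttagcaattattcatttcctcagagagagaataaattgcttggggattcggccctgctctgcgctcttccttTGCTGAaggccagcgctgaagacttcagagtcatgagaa
Ccr8: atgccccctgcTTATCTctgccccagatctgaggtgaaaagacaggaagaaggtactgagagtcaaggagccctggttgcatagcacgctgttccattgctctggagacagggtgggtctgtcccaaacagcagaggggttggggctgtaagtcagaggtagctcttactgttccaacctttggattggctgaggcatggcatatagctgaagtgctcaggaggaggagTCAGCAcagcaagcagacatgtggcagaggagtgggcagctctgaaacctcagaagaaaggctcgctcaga
Il17rb: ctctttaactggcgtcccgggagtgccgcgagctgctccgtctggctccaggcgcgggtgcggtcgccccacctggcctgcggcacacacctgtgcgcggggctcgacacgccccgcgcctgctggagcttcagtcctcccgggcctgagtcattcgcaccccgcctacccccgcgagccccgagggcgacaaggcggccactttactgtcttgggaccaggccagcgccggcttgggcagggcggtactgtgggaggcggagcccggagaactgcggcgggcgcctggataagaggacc

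The Il4 stretch shown held 3 Maf half-sites, at -234, -120 and -47 from the start, and 1 GATA hexamer at 15. The stretch of the other Il4 start, chr11:53617289-53617588, held 0 half-sites, 1 hexamer at -80 and 1 NFAT core, so the counts for Il4 depend on the start that is read. Il13 held 1 of each, with the half-site at -239 and the hexamer at -81. Il5 held 1 hexamer at -72 and 1 half-site at 12, and Ccr8 1 hexamer at -239 and 1 half-site at -21. The Il17rb stretch held neither motif. No base was shared between the motifs in these 5 stretches. Among all 32851 stretches of the table, 29.8% held a GATA hexamer and 19.5% a Maf half-site, so single matches are common. The NFAT core GGAAA, which 61.3% of all stretches held on either strand, occurred 5 times in the Il4 stretch shown, 4 times in Il13 and 2 times in Il5, and 0 times in Ccr8 and Il17rb. A match is a string of letters in this window and does not show binding. The stretches shown for Il4, Il13 and Il5 thus each held all of these motifs, in numbers and positions that differ. What the motifs contribute to the array values was not tested.

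The arrays were checked before the members were read. CD4 T cell genes were alike, with 9 of 9 measured members under 2-fold in each of the comparisons of nTh1 with TT naive, of cTh1 with naive and of nTh1 with cTh1, and Cd4 between 12.33 and 12.72. The array labelled naive stood apart from its label. It had Zbtb16, the gene of the innate-like T cell factor PLZF, at 12.23, against 9.88 in nTh1, 7.31 in cTh1 and 9.36 in TT naive cells, and Tbx21, the gene of T-bet, at 9.81, against 7.92 in nTh1, 11.25 in cTh1 and 7.11 in TT naive cells. Cxcr3, the gene of the sort marker, was at 9.80 there, against 9.91 in nTh1, 10.53 in cTh1 and 7.76 in TT naive cells. H2-Aa, an MHC class II gene, was at 12.66 both there and in nTh1, against 10.73 in cTh1 and 12.29 in TT naive cells. Whether this array was exchanged with another array was not settled by the files. It is called the array labelled naive from here on, and the members and gene lists that are compared with it in cTh1 are also compared with TT naive cells. Y-linked transcripts also split the arrays, with Eif2s3y at 5.16 in nTh1 and 4.97 in cTh1, against 8.55 in TT naive and 8.61 on the array labelled naive, while Xist lay between 12.56 and 13.25 on all 4, and the part of this split in the members' values was not tested. Values are log2 RMA levels of 1 array each, and no difference below has a replicate check or a p-value. Genes are described against a level filter of 6.61, the median of all values, and a threshold of 2-fold, a log2 difference of 1. In bulk RNA, fewer cells that carry a transcript and less of it per cell cannot be told apart.

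Il4 was at 6.48 in nTh1, 6.04 in cTh1, 7.39 in TT naive and 8.99 on the array labelled naive. Both Th1 arrays lay under the level filter and both naive arrays above it. Il13, which encodes the cytokine of mucus production and airway reactivity, was at 7.48 in nTh1, 7.58 in cTh1, 8.11 in TT naive and 10.42 on the array labelled naive. For Il13 the array labelled naive was high, while the other 3 lay within 0.63 of each other. Il5, the eosinophil growth factor gene, was at 6.05 in nTh1, 6.24 in cTh1, 5.99 in TT naive and 6.20 on the array labelled naive. All 4 values lay under the level filter and spanned 0.25, against 2.95 for Il4 and 2.94 for Il13. Il5 is thus the member with no measurable order of the arrays.

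Il17rb was at 8.98 in nTh1, 5.73 in cTh1, 10.33 in TT naive and 11.23 on the array labelled naive. Its range of 5.50 was the widest of the 6 genes, with cTh1 alone under the level filter. Ccr8 was at 10.02 in nTh1, 8.10 in cTh1, 8.96 in TT naive and 10.95 on the array labelled naive, with nTh1 the second highest. Maf had 2 probe sets, and the brighter was at 7.45 in nTh1, 8.53 in cTh1, 7.39 in TT naive and 8.70 on the array labelled naive. The other was at 6.23 in nTh1, 6.95 in cTh1, 5.97 in TT naive and 7.34 on the array labelled naive, in the same order. Maf therefore paired cTh1 with the array labelled naive, both above the thymic arrays, and was the only member above the filter with cTh1 among its higher arrays. Neighbours in these orders that differed by less than the spread between probe sets of a gene, given below, were Il4 and Il13 in nTh1 and cTh1, and Maf in nTh1 and TT naive and in cTh1 and the array labelled naive.

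**Figure D1:**
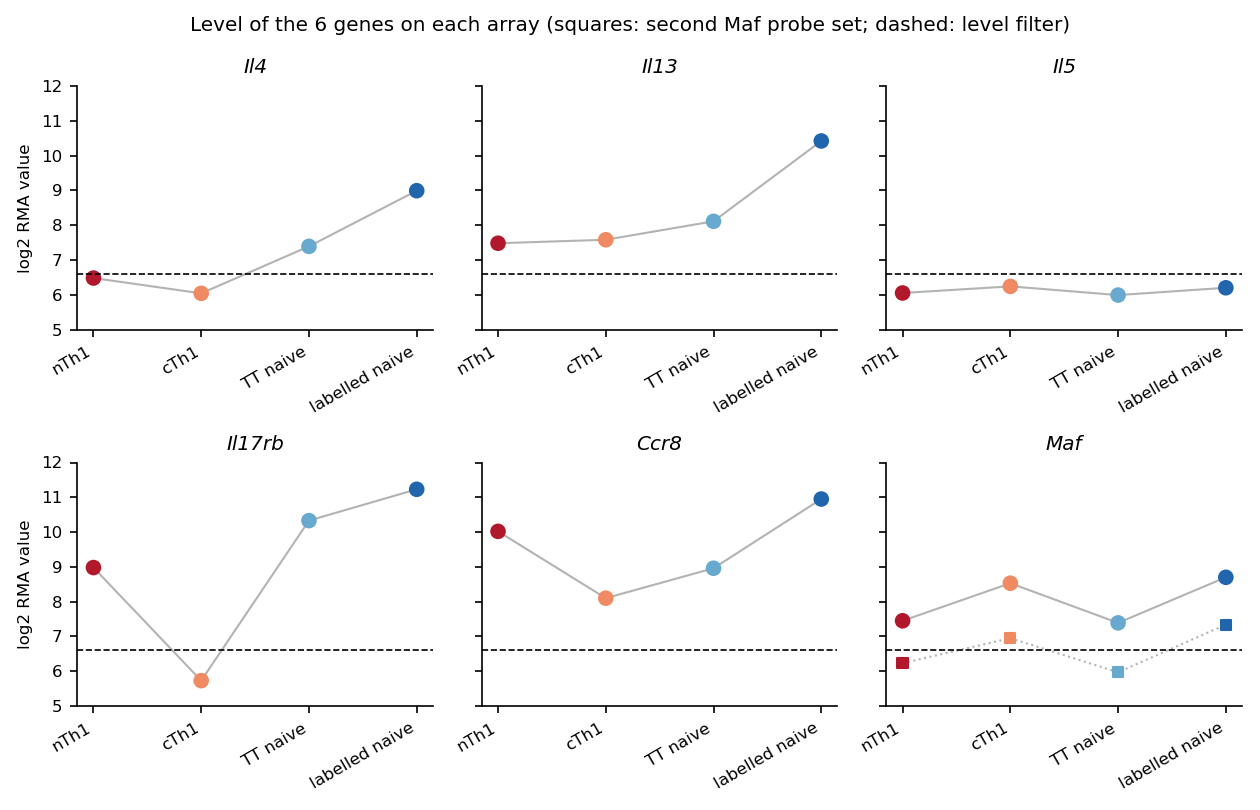
The log2 RMA value of each gene (y axis) on the 4 arrays (x axis), with 1 point per array and the level filter of 6.61 as a dashed line. Il4, Il13, Il17rb and Ccr8 are highest on the array labelled naive, Il5 stays under the filter, and both Maf probe sets are high in cTh1 and on the array labelled naive.

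Across the 4 arrays, 5 of the 6 genes were highest on the array labelled naive and at least 2-fold above their lowest array. Of all 13238 genes above the filter on any array, 4.01% met the same description. The members were chosen with earlier results of these data known, so a count above this share is no independent result. The 5 genes also share 1 array at the top, so these are not 5 separate observations of a difference between cell types. The lowest array differed among them: cTh1 for Il4, Il17rb and Ccr8, nTh1 for Il13 and TT naive for Maf.

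In cTh1 cells, cultured with a block of IL-4, Il4, Il13, Il17rb and Ccr8 were each far lower than on the array labelled naive. Il17rb was lower by 45.1-fold, a log2 difference of -5.50, and ranked 2 from the lowest of 12835 genes. The cTh1 values of Il17rb and Il4 lay under the filter, so their differences and ranks against cTh1, here and in the comparisons below, rest on the low end of the array's scale. The same holds for the differences of Il4 in nTh1, where it was at 6.48. Il4 differed by -2.95, Il13 by -2.84 and Ccr8 by -2.85, which placed them at ranks 23, 32 and 31 from the lowest. Maf differed by -0.17 and Il5 by 0.03. Of the 6 genes, 4 were at least 2-fold lower and 0 higher, while 3.35% of all genes above the filter were lower by that much and 5.13% higher. The median over all 6 was -2.84, against -0.01 over all genes. The spread between probe sets of a gene was 0.40 (SD over 471 genes), which covers probe differences only and leaves out animals, sorts and arrays.

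Set against TT naive cells instead, cTh1 kept 2 of these differences past 2-fold. Il17rb differed by -4.60, again at rank 2 from the lowest of 12728 genes, and Il4 by -1.35. Ccr8 differed by -0.86 and Il13 by -0.53, both under 2-fold. Maf turned to the higher side, with 1.15 for the brighter probe set and 0.97 for the other. Thus 2 of 6 genes were lower and 1 higher, while 3.02% of all genes were lower and 7.24% higher, with a median of -0.70 over the 6 and 0.03 over all genes. The probe set SD was 0.44. These comparisons share the cTh1 array and differ in baseline, by their labels spleen on one side and CIITAtg thymus on the other. Whether the array labelled naive is what its label says was not settled, as given above.

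In nTh1 cells compared with TT naive cells, the CXCR3- population that also came from the thymus of CIITAtg mice, Il17rb was lower and Ccr8 higher. These populations also differed in Y-linked transcripts, as given above, so they cannot be read as a matched pair from the same animals. Il17rb differed by -1.35, 2.55-fold, at rank 54 from the lowest of 12435 genes. Ccr8 differed by 1.06, 2.08-fold, at rank 156 from the highest, and with the arrays centred on their medians it stood at 0.99, under 2-fold. Il4 differed by -0.91 and Il13 by -0.63, both under 2-fold, and Maf and Il5 by 0.07 each. The probe set SD was 0.26, which leaves out animals, sorts and arrays. So 1 of 6 genes was lower and 1 higher, beside 1.09% and 1.41% of all genes, with a median of -0.28 over the 6 and -0.01 over all genes. Myeloid markers differed between the same arrays: in nTh1, 8 of 14 measured ones were 2-fold higher or more and 0 lower, and the log2 of their summed level was 12.20 in nTh1 and 10.77 in TT naive cells. Their part in the Ccr8 difference was not tested. Regulatory T cells also carry Ccr8. Of their 11 measured genes, 3 were at least 2-fold lower in this comparison, 0 were higher and 8 lay between, with a median of -0.34. Foxp3, the factor of these cells, differed by -2.57 and Il2ra by 0.42. What these genes contribute to the Ccr8 difference was not tested.

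Between both Th1 populations, nTh1 had more Il17rb and Ccr8 than cTh1 and less Maf, while Il4, Il13 and Il5 were at most 0.43 apart. Il17rb was higher by 3.25, 9.51-fold, at rank 6 from the highest of 12841 genes, with cTh1 under the filter. Ccr8 was higher by 1.92, 3.77-fold, at rank 85. Maf differed by -1.08 in the brighter probe set and -0.71 in the other, so that their mean, -0.90, and the value with the level trend removed, -0.95, lay under 2-fold. Il4 and Il5 were under the filter on both arrays. In all, 2 of 6 genes were higher and 1 lower, beside 3.46% and 8.3% of all genes, with a median of 0.16 over the 6 and -0.03 over all genes. The probe set SD was 0.48. Myeloid markers were higher in nTh1 here too, 5 of 14 by 2-fold or more and 0 lower, and their part in the Ccr8 difference was not tested. Tissue, genotype and culture differ together between these arrays and cannot be told apart.

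The array labelled naive was also set against each thymic array. TT naive cells had Il13 at -2.32, Ccr8 at -1.99, Il4 at -1.60 and Maf at -1.32 relative to it, and Il17rb at -0.89. That made 4 of 6 genes at least 2-fold lower and 0 higher, beside 2.59% and 0.795% of all genes, with a median of -1.46 over the 6 and -0.04 over all genes. In nTh1 cells Il13 was at -2.94, rank 7 from the lowest of 12754 genes, Il4 at -2.52, Il17rb at -2.25 and Maf at -1.25 relative to the same array, while Ccr8 was at -0.93, and at -1.07 with the arrays centred. Again 4 of 6 were lower and 0 higher, beside 4.43% and 1.93% of all genes, with a median of -1.75 over the 6 and -0.04 over all genes. Probe set SDs were 0.30 and 0.37. Both comparisons share the array labelled naive, as does that of cTh1. Zbtb16 was lower there as well, at -2.87 in TT naive and -2.35 in nTh1 cells, and its part in the members' values was not tested. Of 14 myeloid markers, 5 were lower and 1 higher in TT naive cells, with Fcer1g at -2.48, C1qb at -1.95 and Lyz2 at -1.86, while 5 were higher and 0 lower in nTh1, and their part was not tested either.

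**Figure D2:**
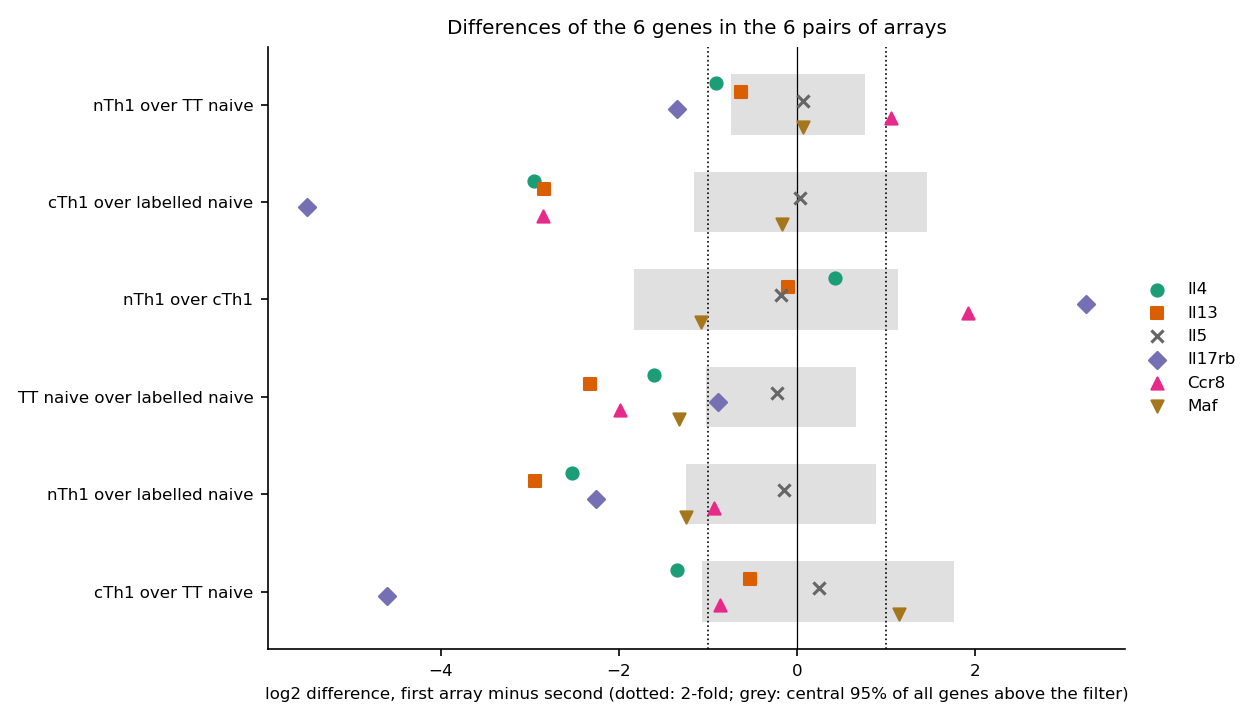
Log2 difference (x axis) of each of the 6 genes in the 6 pairs of arrays (rows), first array minus second, with dotted lines at 2-fold and grey bars for the central 95% of all genes above the level filter. Il17rb lies at -5.50 in cTh1 over the array labelled naive and at 3.25 in nTh1 over cTh1, and Il5 stays near 0 in all pairs.

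The cytokine genes were read together with their neighbours, in the order in which the RefSeq table of GRCm38.p6 lists protein-coding genes along the chromosome: Septin8, Kif3a, Il4, Il13, Rad50, Il5 and Irf1. Rad50, a DNA repair gene whose introns hold the locus control region of the Th2 cytokines, was at 8.54 in nTh1, 8.84 in cTh1, 8.91 in TT naive and 9.0 on the array labelled naive, a range of 0.46. Irf1, an interferon-induced factor, ranged over 0.78 and was highest in cTh1, at 10.85. Kif3a, a kinesin gene, ranged over 1.33, and was also highest in cTh1, at 7.84. Septin8, a cytoskeletal GTPase gene, was at 6.65 in nTh1, 7.05 in cTh1, 6.70 in TT naive and 8.05 on the array labelled naive, so it shared its highest array with Il4 and Il13. Il4 and Il13 had the widest ranges of these 7 genes. Csf2 and Il3, cytokine genes on the same chromosome, were under the filter on all 4 arrays.

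**Figure D3:**
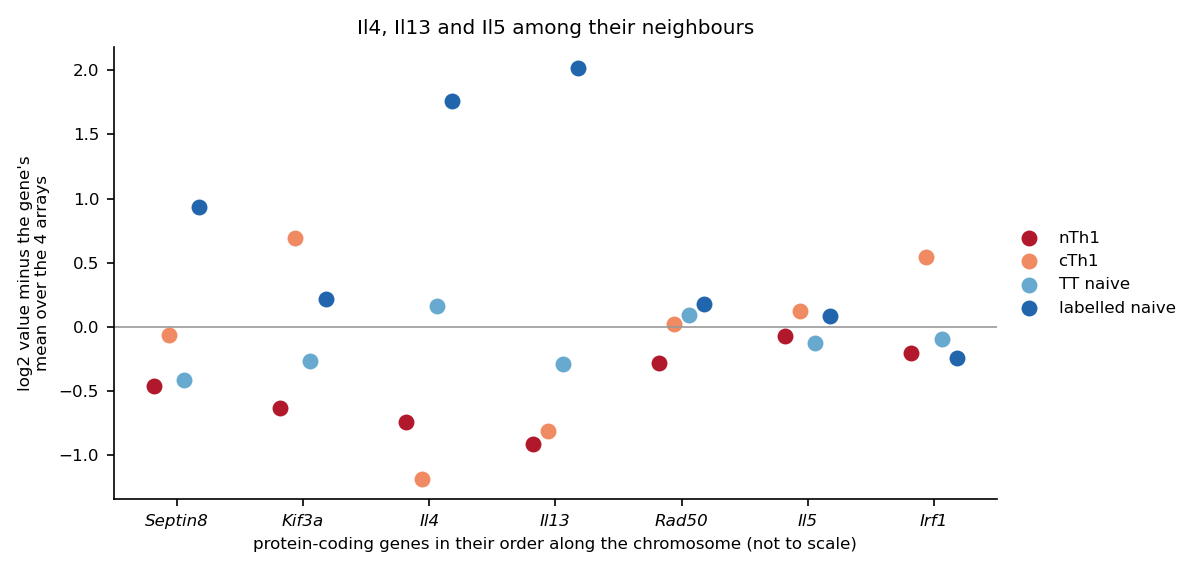
Log2 value minus the gene's own mean over the 4 arrays (y axis) for Il4, Il13, Il5 and the protein-coding genes beside them in chromosomal order (x axis, not to scale), with 1 point per array. Il4, Il13 and Septin8 are highest on the array labelled naive, while Rad50 and Il5 vary by 0.46 and 0.25.

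Gata3 and Stat6, the central factors of Th2 genes, differed far less than Il4 and Il13, while some other factors of the list differed as much. Gata3 was at 9.74 in nTh1, 10.17 in cTh1, 9.86 in TT naive and 10.11 on the array labelled naive. Stat6, the IL-4 signal transducer, was at 11.65 in nTh1, 11.69 in cTh1, 11.64 in TT naive and 11.21 on the array labelled naive. Neither gene followed Il4, since the array highest for Il4 was the lowest for Stat6. List counts here and below are to be read beside the shares of all genes given above for each comparison. Of 23 measured Th2-promoting factors, 0 were past 2-fold in nTh1 over TT naive, where 1.41% of all genes were higher and 1.09% lower. A count of 0 is near that share. In cTh1 over the array labelled naive 4 of these factors were higher and 0 lower: Prdm1, the gene of Blimp-1, by 1.91, Nfil3 by 1.78, Bhlhe40 by 1.40 and Pparg by 1.12. Bhlhe40 was at 8.34 in nTh1, 11.56 in cTh1, 8.42 in TT naive and 10.17 on the array labelled naive, a wider span than that of Il4 but with cTh1 at the top. In cTh1 over TT naive 5 were higher and 0 lower, the same 4 (Bhlhe40 by 3.14, Nfil3 by 2.73, Prdm1 by 2.05, Pparg by 1.61) and Rbpj, the Notch signal factor, by 1.23. The list medians were -0.01 in nTh1 over TT naive, 0.23 in cTh1 over the array labelled naive and 0.11 in cTh1 over TT naive. The first 4 are known from effector T cells of several kinds and not from Th2 cells alone.

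Of 9 measured factors that oppose Th2 genes, 2 were past 2-fold in nTh1 over TT naive, both higher: Eomes, a T-box gene, by 1.84 and Stat4, the IL-12 signal transducer, by 1.52. In cTh1 over the array labelled naive 3 were higher and 2 lower. Zbtb32, a repressor of GATA3, was higher by 2.16, Tbx21 by 1.45 and Runx3, a partner of T-bet at the Il4 silencer, by 1.23, while Eomes was at -2.09 and Zfpm1, the gene of the GATA partner FOG-1, at -1.10. Set against TT naive cells, cTh1 had 4 higher and 0 lower: Tbx21 by 4.14, Zbtb32 by 2.26, Stat4 by 1.43 and Runx3 by 1.39, while Eomes was at -0.90 and Zfpm1 at -0.63. The list medians were 0.34 in nTh1 over TT naive and 0.96 in cTh1 over either naive array. The array labelled naive carried high Il4 and Il13 together with a Tbx21 level of 9.81 and an Ifng level of 8.80, the gene of interferon gamma.

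Among 13 other type 2 cytokine and chemokine genes, 8 were under the filter on all arrays, including Il9, Il31 and Il24. Il10, the gene of a regulatory cytokine, was at 4.92 in nTh1, 8.28 in cTh1, 4.77 in TT naive and 5.41 on the array labelled naive. It was above the filter in cTh1 alone, where Il4 was lowest. Il21, made by follicular helper cells and promoted by c-Maf, was at 6.44 in nTh1, 7.13 in cTh1, 8.99 in TT naive and 8.53 on the array labelled naive. Tnfsf11, the gene of the TNF family ligand RANKL, was at 8.72 in nTh1, 7.54 in cTh1, 8.56 in TT naive and 10.06 on the array labelled naive, in the array order of Ccr8. The chemokine genes Ccl17 and Ccl22 encode ligands of CCR4 and went opposite ways in cTh1 over the array labelled naive, at -1.77 and 2.09. In that comparison 2 of the 13 were higher and 3 lower, with a median of 0.14. In cTh1 over TT naive 2 were higher, Il10 by 3.51 and Ccl22 by 2.18, and 2 lower, Il21 at -1.86 and Tnfsf11 at -1.02, with a median of 0.04, while Ccl17 was at -0.03. In nTh1 over TT naive Il21 was the 1 gene past 2-fold, at -2.55.

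Il17rb stood out from the rest of its receptor pathway. Il17ra, the chain it pairs with, was at 10.68 in nTh1, 10.77 in cTh1, 10.82 in TT naive and 10.31 on the array labelled naive. Traf3ip2, the gene of the adaptor Act1, was at 9.30 in nTh1, 9.60 in cTh1, 9.09 in TT naive and 8.73 on the array labelled naive, and Traf6, a ubiquitin ligase downstream of it, lay between 10.04 and 10.22. Of the 11 measured genes of this list, Il17rb was the 1 gene past 2-fold, in nTh1 over TT naive, in cTh1 over the array labelled naive, in cTh1 over TT naive and in nTh1 over cTh1. The medians of the list were 0.16, -0.06, -0.01 and 0.16 in that order. Il4ra, the receptor chain shared by IL-4 and IL-13, was between 11.89 and 12.39 on all arrays. Of 17 measured type 2 receptors and surface genes, 0 were past 2-fold in nTh1 over TT naive, near the share of all genes. In cTh1 over the array labelled naive Cysltr1, a leukotriene receptor gene, was higher by 3.07, Plcd1 by 1.60 and Ccr4 at -2.11. In cTh1 over TT naive Cysltr1 was higher by 3.76 and Plcd1 by 1.79, 0 genes were lower, and Ccr4 was at -0.66.

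Ccr8 was 1 of several CC chemokine receptor genes that were high on the array labelled naive. Ccr4, a receptor of Th2 and regulatory T cells, was at 9.37 in nTh1, 9.17 in cTh1, 9.82 in TT naive and 11.28 on the array labelled naive. Ccr10, a receptor of skin-homing T cells, was at 6.84 in nTh1, 6.37 in cTh1, 6.67 in TT naive and 9.03 on the array labelled naive. Ccr9, a receptor of thymocytes and gut-homing T cells, was at 7.60 in nTh1, 6.43 in cTh1, 7.39 in TT naive and 8.84 on the array labelled naive. Of 12 measured genes in this list, ligands included, 4 were at least 2-fold lower in cTh1 than on the array labelled naive, namely Ccr8, Ccr10, Ccr9 and Ccr4, and Ccr6, a receptor of Th17 cells, was higher by 1.84. None of these 4 was past 2-fold in cTh1 over TT naive, where Ccr9 was at -0.96, Ccr8 at -0.86, Ccr4 at -0.66 and Ccr10 at -0.29. In that comparison 0 of the 12 genes were lower and 3 higher, Ccr2, a receptor of monocytes and effector T cells, by 2.63, Ccr6 by 2.38 and Ccrl2 by 1.78. In TT naive over the array labelled naive 6 were lower and 0 higher. In nTh1 over TT naive Ccr8 was the 1 gene past 2-fold. The ligand genes Ccl1 and Ccl8 were under the filter on all 4 arrays.

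Maf was past 2-fold in some comparisons where the rest of its family was not. Among 8 measured large Maf, small Maf and Bach genes, 0 were past 2-fold in nTh1 over TT naive, again near the share of all genes. In cTh1 over the array labelled naive Mafk, a small Maf, was at -1.18 and no other gene reached 2-fold. In nTh1 over cTh1 and in cTh1 over TT naive Maf was the 1 gene past 2-fold in the family. This holds for its brighter probe set, while the other was at -0.71 and 0.97. In nTh1 over the array labelled naive Bach2 was past 2-fold as well, at 1.15, beside Maf at -1.25. Of 11 measured T cell genes tied to c-Maf, 3 were higher in cTh1 than on the array labelled naive and 2 lower, with Il10 at 2.87, Ctla4, an inhibitory receptor gene, at 2.08 and Ccr6 at 1.84, against Il4 at -2.95 and Il21 at -1.40. Maf itself differed by -0.17 between these arrays. In cTh1 over TT naive, where Maf was at 1.15, 4 were higher and 2 lower, with Il10 at 3.51, Ctla4 at 2.40, Ccr6 at 2.38 and Tigit, another inhibitory receptor gene, at 1.46, against Il21 at -1.86 and Il4 at -1.35. Il10 and Il4, both known as c-Maf targets, differed in opposite directions in cTh1 over either naive array. Il4 was under the filter in cTh1, and Il10 was under it on both naive arrays. The part of Maf in these values was not tested. The list medians were 0.42 over the array labelled naive and 0.94 over TT naive.

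**Figure D4:**
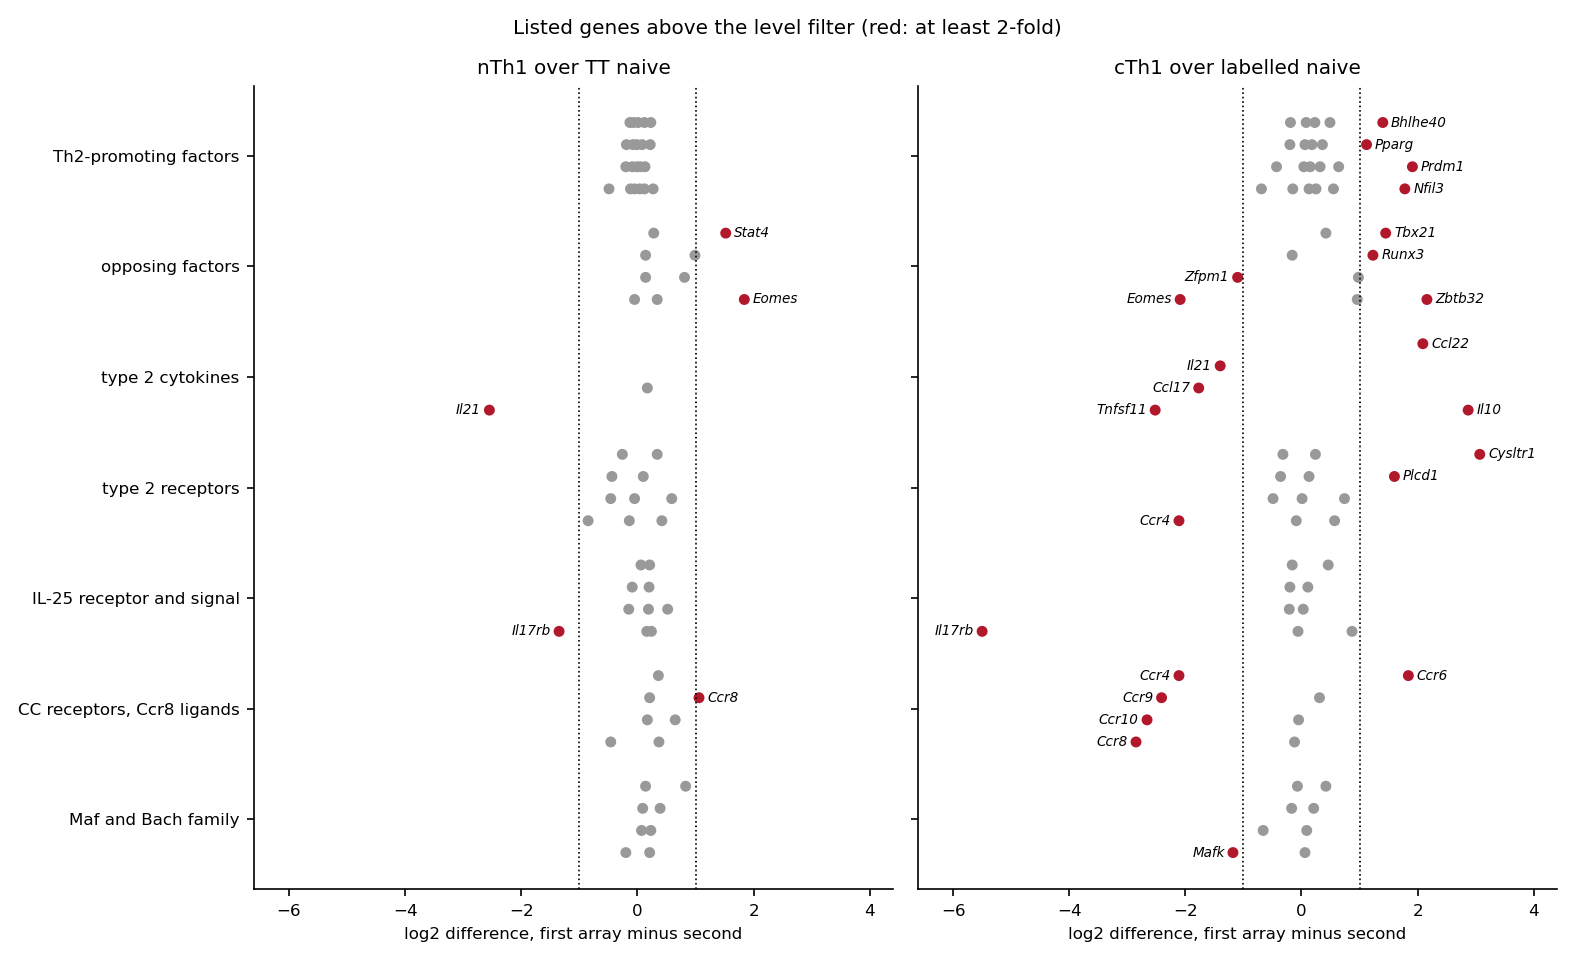
Log2 difference (x axis) of the listed genes above the level filter, by list (rows), in nTh1 over TT naive (left) and cTh1 over the array labelled naive (right), with dotted lines at 2-fold and genes past it in red. Il17rb stands apart from the other genes of its pathway in both. No Th2-promoting factor passes 2-fold in nTh1 over TT naive, where 1.41% of all genes are higher and 1.09% lower.

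Genes with the most similar profiles were found by the Euclidean distance between log2 values centred on each gene's mean, over the 4 arrays and 13238 genes above the filter on any array. With 4 values per gene such likeness describes these arrays only. Nearest to Il4 were Pdcd1, the gene of the inhibitory receptor PD-1, at a distance of 0.28, then Moxd1 at 0.37, Rbm24 at 0.38, Qpct at 0.49 and Cdh3 at 0.52. Pdcd1 was at 8.43 in nTh1, 8.19 in cTh1, 9.59 in TT naive and 10.85 on the array labelled naive, the order of Il4. Nearest to Il13 were Akap6 at 0.30, Nrp1, a semaphorin receptor gene, at 0.57, Ccr10 at 0.63, Il4 at 0.66 and Steap3 at 0.68. Il4 was the only other member among the 5 nearest of any member.

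Nearest to Il17rb were Nrgn at 0.49, Chl1 at 0.54, Chn2 at 1.11, Map2 at 1.19 and Cap2 at 1.47. Nrgn, which encodes a calmodulin-binding protein known from neurons, was at 10.00 in nTh1, 6.21 in cTh1, 11.33 in TT naive and 11.80 on the array labelled naive, and so low in cTh1 alone, as Il17rb was. Nearest to Ccr8 were Nr4a2, an orphan nuclear receptor gene induced by T cell receptor signals, and Zbtb10 at 0.45 each, Coq10b at 0.63, and Ccr9 and Tnfsf11 at 0.68. Nr4a2 was at 8.80 in nTh1, 7.11 in cTh1, 7.80 in TT naive and 9.35 on the array labelled naive, with nTh1 the second highest. Nearest to Maf were Ticrr, a DNA replication gene, at 0.03, S100a4 at 0.13, Osbpl3 and Spdl1 at 0.16 and Chsy1 at 0.19. The range of Maf itself was 1.32, and a distance of this kind is not scaled to the range. Il5 was under the filter on every array and was left out of this search.

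**Figure D5:**
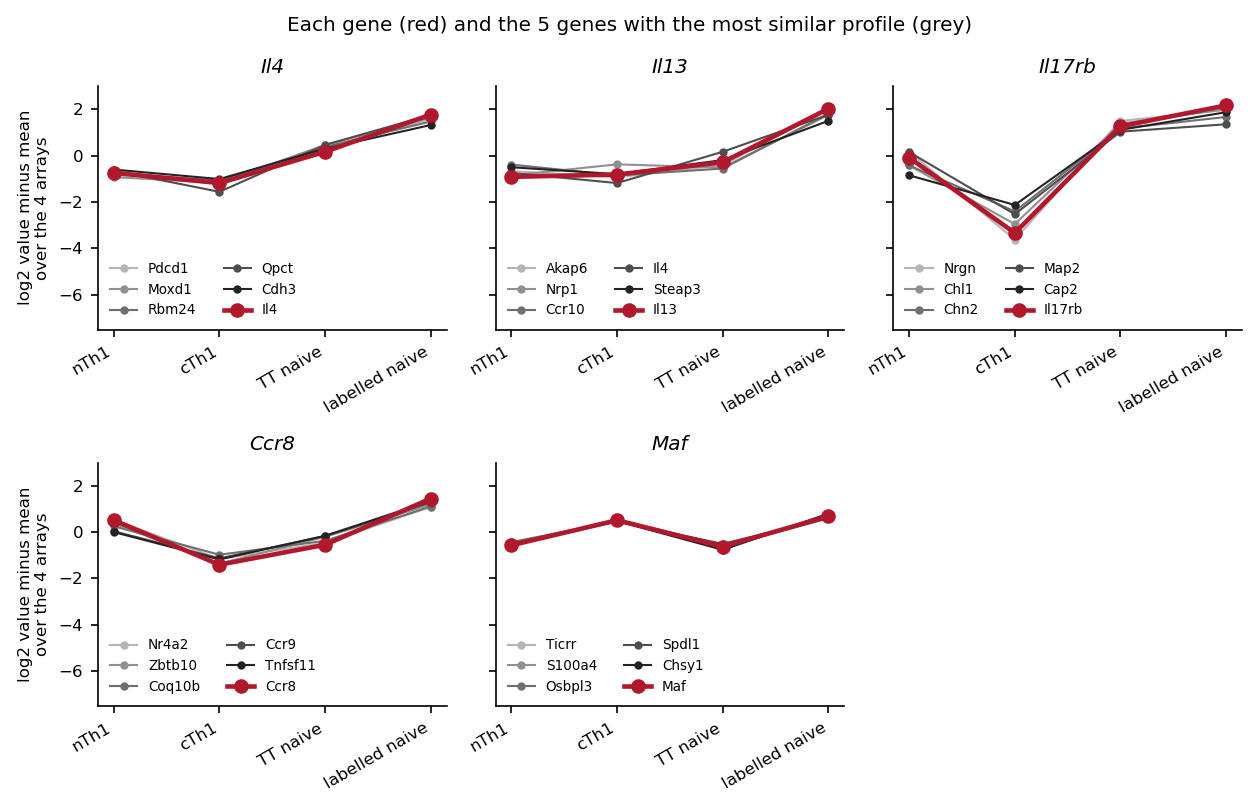
Log2 value minus the gene's mean over the 4 arrays (y axis) on each array (x axis) for 5 members (red) and the 5 genes nearest to each (grey). Il17rb and its nearest genes are low in cTh1, and Maf and its nearest genes are high in cTh1 and on the array labelled naive.

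Markers of other cells that make type 2 cytokines were read on the same arrays. Of 13 measured mast cell and basophil genes, 3 were above the filter on any array, Cpa3, Kit and Hdc, and the log2 of the summed level ran from 9.37 in TT naive to 9.99 in nTh1 cells. The defining genes Mcpt8, Fcer1a, Ms4a2 and Prss34 were under the filter on all 4 arrays, with Mcpt8 at 5.26 in nTh1, 5.71 in cTh1, 4.88 in TT naive and 5.12 on the array labelled naive. Cpa3, a mast cell and basophil protease gene, was at 8.70 in nTh1, 7.35 in cTh1, 7.05 in TT naive and 7.15 on the array labelled naive, and so more than 2-fold higher in nTh1 than on every other array. Its part in the members' values was not tested. Hdc, the histamine-forming enzyme gene, had a level of 7.39 on the array labelled naive and lay between 5.77 and 6.21 on the other arrays. All 6 measured eosinophil genes, Epx and Prg2 among them, were under the filter on all 4 arrays. Of 7 measured genes of group 2 innate lymphoid cells all were above the filter on some array. The log2 of their summed level was 11.09 in nTh1, 11.78 in cTh1, 11.11 in TT naive and 11.52 on the array labelled naive. In cTh1 over the array labelled naive 1 of these genes was higher, Nmur1 by 2.60, and 1 lower, Hes1 at -1.47. Their part in the Il4 values was not tested. The 11 measured regulatory T cell genes had a log2 summed level of 12.07 in nTh1, 14.19 in cTh1, 12.73 in TT naive and 13.01 on the array labelled naive, with cTh1 highest where Ccr8 was lowest. Single genes of that list differed in their order. Il2ra, an activation marker as well, was at 12.52 in cTh1, while Ikzf2 at 10.89, Nrp1 at 9.81 and Itgae at 8.03 were highest on the array labelled naive, as Ccr8 was. In cTh1 over the array labelled naive 5 of the 11 were higher and 4 lower, in cTh1 over TT naive 6 were higher and 1 lower, and their part in the Ccr8 values was not tested. B cell and CD8 genes, highest in cTh1, had log2 summed levels of 12.23 and 11.54 there, against 9.66 and 8.75 on the array labelled naive. Their part in the lower and the higher values of cTh1, of members and listed genes, was not tested.

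Innate-like T cell genes, Il17rb among them, were one-sided against the array labelled naive in the thymic populations and mixed in the other comparisons. Zbtb16 was at its highest there and at its lowest in cTh1, as Il4, Il17rb and Ccr8 were. Xcl1, a chemokine gene of innate-like and cytotoxic lymphocytes, was at 9.36 in nTh1, 7.18 in cTh1, 7.05 in TT naive and 10.02 on the array labelled naive, which like Ccr8 set nTh1 second. Of 19 measured genes, 5 were higher and 5 lower in cTh1 than on the array labelled naive (median 0.02). The 5 higher were Gzma, Tmem176a, Tmem176b, Plac8 and Slamf1, each at its highest in cTh1. The 5 lower were Il17rb, Zbtb16, Xcl1, Izumo1r and Egr2. In cTh1 over TT naive 6 were higher and 4 lower, with a median of 0.50. In TT naive over the array labelled naive 0 were higher and 5 lower, with a median of -0.40, and in nTh1 over the same array 0 were higher and 4 lower, with a median of -0.66. In nTh1 over TT naive 3 were higher and 3 lower, with a median of 0.05. Their part in the members' values was not tested.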

How the data were processed

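The values are log2 probe set levels deposited by the authors. The submitters' processing notes name RMA and Affymetrix Expression Console 1.3.1. As a method, RMA corrects the background, equalises the arrays' distributions and summarises the probes of a set. Per the labels, 300 ng of total RNA per array was labelled. All 41345 probe sets of the 4 arrays were read, with 0 missing values and 0 unmatched columns. Names came from the platform annotation: 23521 probe sets had 1 symbol, and 1814 with several named no gene. For 1082 genes with several probe sets, the one with the highest mean was used. The number of arrays, 1 per population, limits the precision, and no test was made.

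Genes were compared where either array reached 6.61. Differences are log2 values, first array minus second, counted at 2-fold or more. The spread given is the pooled SD of the difference between probe sets of a gene, which is no measure of error between animals, sorts or arrays. Named genes were the 6 members, the genes of 18 lists, the neighbours of the cytokine genes and the 5 nearest profiles per member, with predicted, small RNA and multigene family genes passed over. Counting was tested on simulated data. Members and lists were chosen with earlier results of these data known. Alternatives were the level filter, centring, repeated quantile normalisation, removal of a loess trend (span 0.3), the mean of probe sets, 3-fold, and Pearson correlation for the profiles. Computation was in Python 3.11.15 with numpy 2.4.6, pandas 2.3.3, statsmodels 0.14.6 and matplotlib 3.10.9.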

Additional observations from a re-analysis of the deposited data

Results flagged for a closer look

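Ccr8 differed in opposite directions in the comparisons of Th1-type with naive-type cells that are labelled as thymus and as spleen. It was at 1.06 in nTh1 over TT naive and at -2.85 in cTh1 over the array labelled naive, both past 2-fold. With the arrays centred the first of these was 0.99, under 2-fold. In cTh1 over TT naive Ccr8 was at -0.86, also under 2-fold. Maf also had opposite signs, 0.07 in nTh1 over TT naive and -0.17 in cTh1 over the array labelled naive, both smaller than the probe set SDs of 0.26 and 0.40. Of 12032 genes above the filter in both comparisons, 45.9% had opposite signs of any size. The share with opposite signs past 2-fold in both was not counted. With 1 array per population, the difference between these comparisons was not tested.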

How the results depend on the processing

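All 144 alternative values of the members' differences kept their sign where past 2-fold and moved by at most 0.25, less than the probe set SD of their comparison. Of 84 alternative counts of members, 75 stayed within 1.5 times and 9 moved. With the arrays centred, 0 members instead of 1 (Ccr8) were higher in nTh1 over TT naive. With the loess trend removed and with the mean of probe sets, 0 instead of 1 (Maf) were lower in nTh1 over cTh1. With the level filter raised to the 75th percentile, 8.39, 1 instead of 2 was lower in cTh1 over TT naive. At 3-fold, 0 were higher and 0 lower in nTh1 over TT naive, 0 lower in nTh1 over cTh1, and 0 higher and 1 lower in cTh1 over TT naive. The members that left were at 0.99 (Ccr8), -0.95 and -0.90 (Maf), and at 7.39 or less, under the raised filter (Il4). Nearest genes by Pearson correlation over the 4 arrays shared 0 of 5 with those by distance for Il4, Il13, Il17rb and Ccr8, and 1 of 5 for Maf, since correlation ignores the size of a profile.

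Array medians differed by 0.18 for nTh1 minus cTh1, 0.13 for nTh1 minus the array labelled naive and -0.12 for cTh1 minus TT naive. Centring moved the share of calls that were higher over all genes to 15.7% from 29.4% in nTh1 over cTh1 (278 against 444 genes), and to 17.3% from 30.3% in nTh1 over the array labelled naive, where the loess step gave 41.8% and renewed quantile normalisation 20.0%. With the 75th percentile filter, 99 against 175 genes were higher in nTh1 over TT naive, 61 against 100 higher and 217 against 326 lower in TT naive over the array labelled naive, and 142 against 246 higher in nTh1 over the array labelled naive. At 3-fold, counts per direction over all genes ran from 20 to 448, against 100 to 1066 at 2-fold. No paired analysis was possible because each population had 1 array.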
